A study of Arabidopsis thaliana with 8 samples.

Results

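In the second H2B-GFP pulldown of Arabidopsis seedlings, 501 wide stretches of enriched chromatin lay over the bodies of protein-coding genes in the chromosome arms. They were chosen on the measured values of that replicate's peak list: an interval had to be at least 1000 bp wide, its midpoint had to lie more than 3 Mb from the centromere and more than 500 kb from the chromosome end, and its strongest summit had to fall in a protein-coding gene. The list held 8608 intervals on the nuclear chromosomes, of which 648 were at least 1000 bp wide, and 533 of those lay in the arms. In 32 of the 533 the summit fell outside protein-coding genes. The 501 intervals were 5.82% of the list by number and 14.3% of its bases, 651 kb of 4547 kb. Their summits lay in 497 genes. The 6397 arm intervals under 1000 bp whose summit also lay in a protein-coding gene, called narrower intervals here, serve for comparison.

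The study pulled down GFP fusions with a GFP-binding resin from cross-linked, sonicated chromatin of whole seedlings, 7 days after germination. The GBPL3 line was gbpl3-5/pAtGBPL3::AtGBPL3genomic-GFP (comp2), a mutant carrying a GFP fusion of the large GTPase AtGBPL3 under the gene's own promoter. The histone line was Col-0/p35S::AtH2B-GFP, a wild-type background carrying H2B-GFP under the cauliflower mosaic virus 35S promoter, which is active in most cell types, so the fusion does not follow the expression of the plant's own H2B genes. Each line gave 2 pulldown and 2 input samples, so that 8 samples formed 4 groups. Input samples are not analysed here. Whether the 2 replicates of a group were grown apart is left unsaid by the labels, and an overlap of their lists may reflect technical repetition alone. A whole seedling mixes all tissues, so an interval found in few cells and a weak one found in most cannot be told apart.

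H2B pairs with H2A, and these dimers join H3 and H4 in the nucleosome, around which most nuclear DNA is wound. Pulldown of a core histone therefore reads where nucleosomes, or nucleosomes holding the tagged copy, are recovered more often than in their surroundings. In plants, as in other eukaryotes, active genes tend to have a nucleosome-poor region at the transcription start and ordered nucleosomes along the body of the gene.

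Before the results, the lists differ in size: the list of H2B-GFP replicate 1 held 1361 intervals with a median width of 358 bp, against 8608 in replicate 2, and the GBPL3-GFP lists held 87 and 81. The depth of every library is unknown, and whether depth accounts for the difference in list size was not tested. All values of replicate 2 below describe the intervals that these same values selected, and no test was made on them. Replicate 1 and the GBPL3-GFP lists played no part in the choice.

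The wide intervals were broad stretches of weak enrichment. Their median width was 1219 bp (quartiles 1093 and 1396 bp), and the widest reached 2865 bp. Their fold enrichment, the authors' ratio of the highest summit to its local background, had a median of 1.96 (SD 0.249 over 501 intervals), and the narrower intervals had a median of 1.74 (SD 0.191 over 6397 intervals). A fold of at least 2 was reached by 218 wide intervals (43.5%) and by 717 narrower intervals (11.2%). The −log10 q of the strongest summit, where q is the peak caller's p-value adjusted for multiple testing, had a median of 4.40 in the wide and 2.47 in the narrower intervals. Width and fold rose together only loosely, with a Spearman correlation of 0.21 over the 501 intervals, which share 1 library. The interval with the highest fold was among the narrowest of the 501, and the widest interval had a fold of 2.42.

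**Figure D1:**
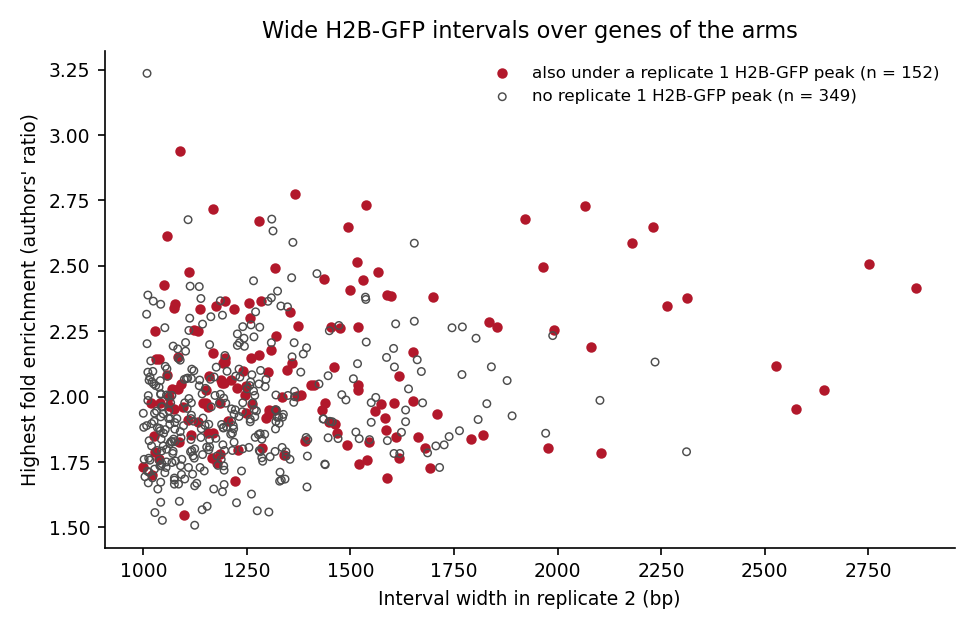
Width (bp) against the highest fold enrichment (the authors' ratio) of each of the 501 wide intervals of H2B-GFP replicate 2; filled red points are the 152 intervals that a replicate 1 peak also overlapped, open circles the 349 that none overlapped. Most points lie under 1500 bp and a fold of 2.5, and 8 of the 10 widest intervals are red.

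Just inside the width threshold, the 70 intervals of 1000 to 1049 bp had a median fold of 1.89, a mean of 2.37 summits and a median of 41.3% of the gene covered. Just outside it, the 74 intervals of 950 to 998 bp had a median fold of 1.90, a mean of 2.18 summits and 34.0% of the gene covered. The intervals on either side of the threshold were thus alike in fold and in number of summits. A replicate 1 peak overlapped 11 of the 70 intervals (15.7%) and 18 of the 74 (24.3%).

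Nearly all wide intervals were chains of summits. Of the 501, 478 (95.4%, Wilson 95% interval 93.2 to 96.9) held more than 1 summit, against 21.3% of the narrower intervals and 26.5% of all intervals in the list. The narrower intervals, with a median width of 418 bp, have less room for a further summit, so this contrast is tied to the choice. The 1429 summits of the wide intervals were spread as 23 intervals with 1 summit, 172 with 2, 207 with 3, 69 with 4 and 30 with 5 or more. Neighbouring summits of an interval were a median of 392 bp apart (quartiles 300 and 484 bp), which is wider than the repeat length of a single nucleosome. Within an interval the summits were of like height: the lowest had a median of 0.855 times the fold of the highest, over the 478 intervals with more than 1. The number of summits followed the width, with median widths of 1077 bp at 1 summit, 1134 bp at 2, 1240 bp at 3, 1468 bp at 4 and 1623 bp at 5, and a Spearman correlation of 0.46 over the 501 intervals. The 23 intervals with a single summit had a higher median fold, 2.11, than the intervals with 2 (1.98), 3 (1.98), 4 (1.86) or 5 (1.88).

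QKY, which encodes QUIRKY, a membrane protein of organ shape and tissue patterning, had the longest chain. Its interval, chr1:28075115-28077756 on TAIR10, was 2642 bp wide with 8 summits and covered 67.7% of the 3905 bp gene, at a fold of 2.03. The intervals over AT5G56040, a receptor kinase gene also called SKM2, and over AT5G13890 had 7 summits each. OPS, which encodes OCTOPUS, a membrane protein needed for phloem differentiation, had 6 summits in an interval of 2263 bp at a fold of 2.35. AT1G15830 also had 6, and its fold was 2.65.

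The 10 widest intervals ran from 2231 to 2865 bp. The widest lay over AT3G03680, at chr3:907713-910577, where it covered 80.8% of a gene of 3545 bp with 4 summits and a fold of 2.42. Second was ASY2, related to the meiotic chromosome axis protein ASY1, where 2751 bp (chr4:15552087-15554837) covered 43.9% of a 6266 bp gene at a fold of 2.51. The interval over emb2734 was 2527 bp wide and covered 40.9% of 6182 bp.

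NCED3 encodes the 9-cis-epoxycarotenoid dioxygenase of the rate-limiting step in abscisic acid synthesis under drought. Its interval, chr3:4831436-4833748, was 2313 bp wide with 2 summits, a fold of 2.38 and 84.7% of the 2730 bp gene covered. In replicate 1 the same gene held 2 peaks inside that interval, with folds of 2.09 and 2.56. NCED2, of the same enzyme family, held an interval of 1708 bp with 5 summits at a fold of 1.93, and its replicate 1 peak had a fold of 2.29. Neither gene was met by a GBPL3-GFP peak.

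Intervals over AT5G13890 and the phospholipase gene PLA-I{gamma}1 were the exceptions among the 10 widest. They left the gene under their strongest summit, with 68.8% and 58.0% of the interval inside it, and no replicate 1 peak overlapped them. The other 8 lay wholly inside their gene and all 8 were overlapped in replicate 1.

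**Figure D2:**
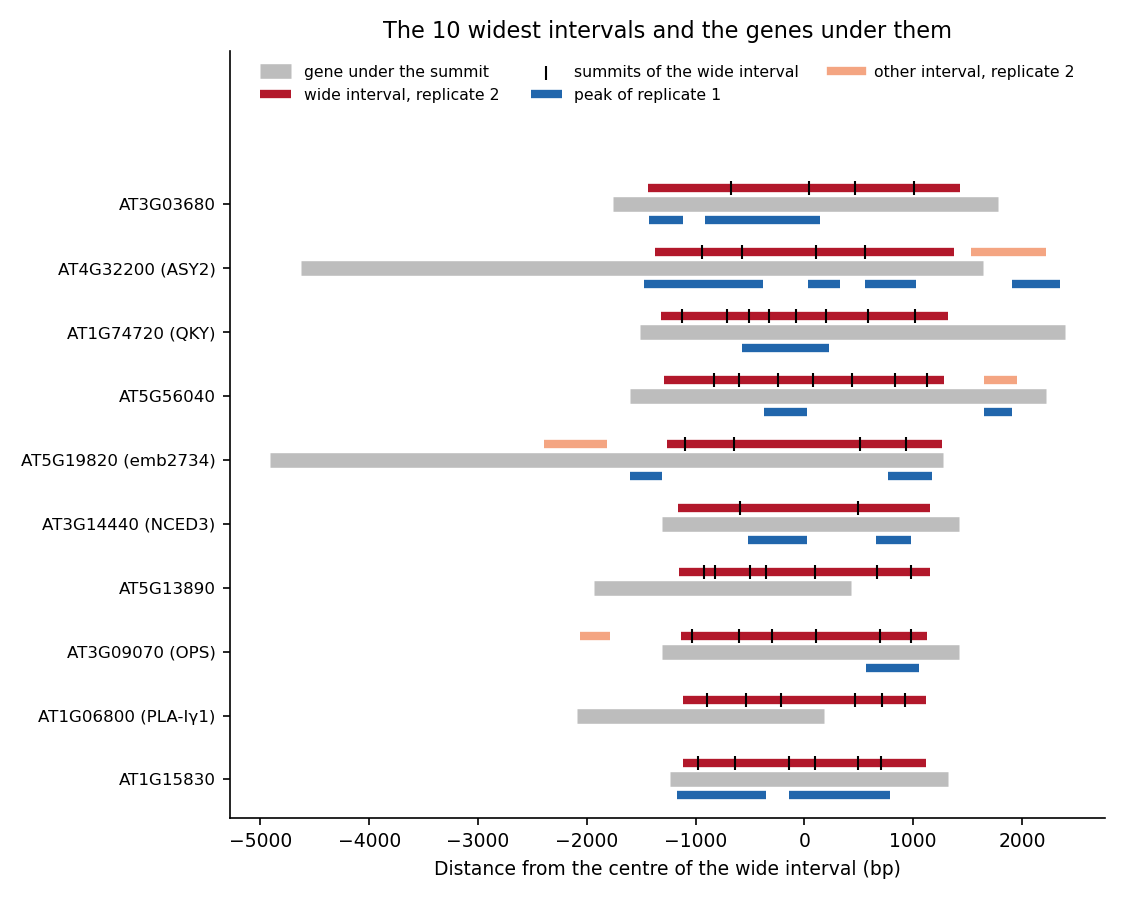
Maps of the 10 widest intervals, aligned at their centres, with distance in bp on the horizontal axis: red bars are the wide intervals of H2B-GFP replicate 2 with their summits as black ticks, orange bars other intervals of the same list, grey bars the gene under the strongest summit and blue bars peaks of replicate 1. In 8 of 10 maps the red bar lies within the grey one, with at least 1 blue bar beneath it.

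The 10 intervals with the highest folds were of all widths, from 1009 to 2067 bp. RBOHD, the NADPH oxidase that makes the extracellular reactive oxygen burst in plant immunity, had a fold of 3.24 and a −log10 q of 17.3 in replicate 2. Its interval, chr5:19397404-19398412, was 1009 bp wide, had 1 summit and covered 20.1% of the 5021 bp gene. No replicate 1 peak overlapped it, although it was the strongest of the 501. AT3G58630 followed at a fold of 2.94 with 1 summit in 1089 bp, and its replicate 1 peak had a fold of 1.69. AT5G07740 had a fold of 2.77 over 1367 bp against 1.85 in replicate 1, and AT3G06130 had 2.73 over 1537 bp against 2.01. AT4G18670 had 2.73 over 2067 bp against 1.94, and AT2G40230 had 2.72 over 1169 bp against 1.75. HAI1, a protein phosphatase gene induced by abscisic acid, had 2.68 with 3 summits in 1310 bp and no replicate 1 peak. AT5G10770 had 2.68 over 1108 bp and no replicate 1 peak. AT1G30280 had 2.67 over 1278 bp against 1.82 in replicate 1. AT2G24780, described with the covered genes, had 2.68 over 1922 bp. Of these 10 intervals, 7 had a replicate 1 peak.

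Most genes under a wide interval were of ordinary to above-average length. The gene under the summit had a median length of 2658 bp (quartiles 2061 and 3523 bp, range 561 to 18607 bp). Genes under the narrower intervals had a median of 2589 bp, the 19494 arm genes of at least 1000 bp had 2349 bp, and all 22764 protein-coding genes of the arms had 2112 bp. A wide interval that has to lie around a summit within a gene fits a long gene more readily, so these lengths are tied to the choice. Within the 501, width hardly followed gene length, with a Spearman correlation of 0.12.

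The share of genes holding a wide interval was lowest under 1.5 kb and lay between 2.77 and 3.66% above 2 kb. Over all lengths, 2.18% of the protein-coding genes of the arms held the strongest summit of a wide interval. The share was 0.0917% of 3270 genes under 1 kb, 0.615% of 3253 genes from 1 to 1.5 kb and 2.17% of 3965 genes from 1.5 to 2 kb. It was 3.36% of 6278 genes from 2 to 3 kb (Wilson 95% interval 2.94 to 3.84), 2.90% from 3 to 4 kb, 2.77% from 4 to 6 kb and 3.66% of 737 genes of at least 6 kb (2.53 to 5.28). The Wilson intervals of the upper 4 classes overlap, and whether the share changes beyond 2 kb was not tested. Per Mb of gene, 13.7, 8.46, 5.82 and 4.55 genes with a wide interval were found in these 4 classes. The share of genes holding a narrower interval increased over all 7 classes, with 8.56% under 1 kb, 26.6% from 2 to 3 kb and 38.9% at 6 kb and above. The median width of the wide intervals stayed between 1119 and 1393 bp in all 7 classes.

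**Figure D3:**
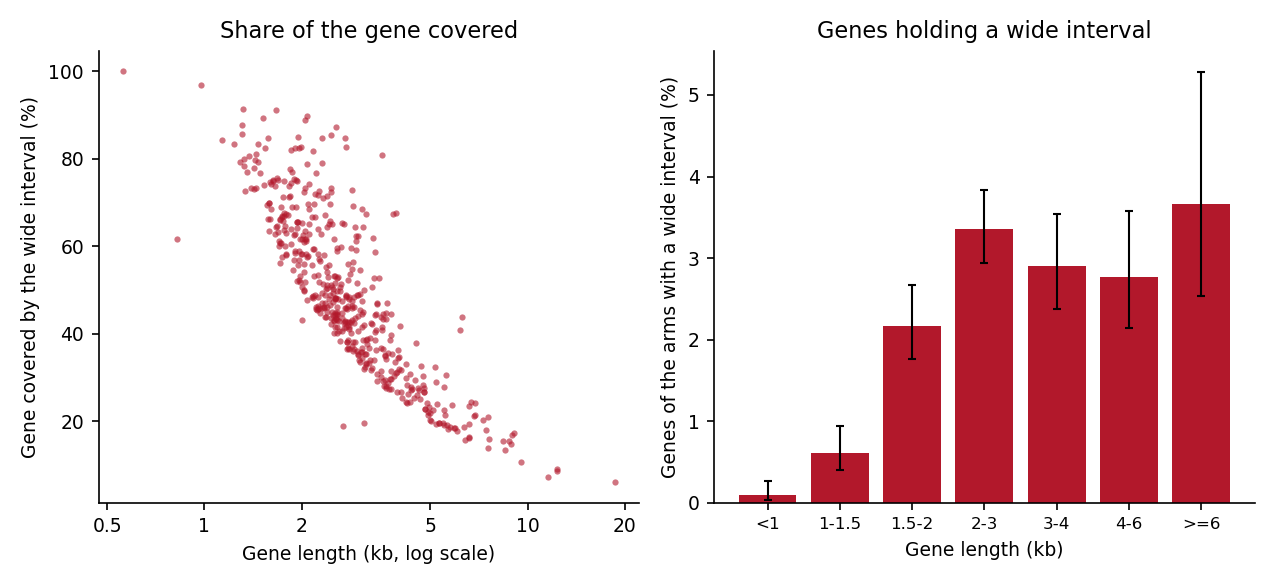
Left, share of the gene covered by its wide interval (%) against gene length (kb, log scale), 1 point for each of the 501 intervals; right, share of the protein-coding genes of the arms that held a wide interval (%) by gene length (kb), with Wilson 95% intervals as error bars. Coverage falls as genes lengthen, from a median of 96.8% under 1 kb to 17.0% at 6 kb and above. The share of genes lies between 2.77 and 3.66% from 2 kb on.

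A wide interval covered a median of 47.5% of its gene, against 16.3% for a narrower interval. The groups were split by width and their genes had like lengths, so this contrast in coverage is tied to the choice. At least 50% of the gene was covered in 221 of 501 wide intervals (44.1%) and in 308 of 6397 narrower intervals (4.81%). At least 80% was covered in 28 wide intervals (5.59%). Since widths varied little, coverage followed gene length, with a median of 79.6% for genes of 1 to 1.5 kb, 48.9% for 2 to 3 kb and 25.3% for 4 to 6 kb.

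Among genes of at least 1000 bp, coverage was highest at AT2G39560 (91.3% of 1313 bp), AT4G38250 (91.2% of 1667 bp), AT1G14430 (89.8% of 2075 bp), AT1G71170 (89.3% of 1521 bp) and GSA1 (89.0% of 2046 bp). GSA1 encodes glutamate-1-semialdehyde aminomutase, an early enzyme of chlorophyll and heme synthesis. Its interval had 5 summits at a fold of 1.85, and replicate 1 had a peak of fold 2.01 at its edge. AT1G71170 had a replicate 1 peak of 955 bp and fold 1.85 within an interval of 1358 bp and fold 2.13. The other 3 genes had no replicate 1 peak under the wide interval.

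AT2G24780 was the single gene covered whole. It is 561 bp long, and 29.2% of its interval of 1922 bp (chr2:10565396-10567317) lay in it. The same interval reached into the neighbouring CONSTANS-like gene COL3, which encodes a B-box transcription factor. Its fold was 2.68 in replicate 2, and 2 replicate 1 peaks with folds of 2.48 and 1.64 together overlapped 1531 bp of it. This interval is thus assigned by its summit to a gene that holds the smaller share of its length.

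Most wide intervals lay within a gene body, but a smaller share than of the narrower intervals, and their edges came nearer to gene ends. Intervals with their strongest summit elsewhere had been left out of both groups, so this placement is tied to the choice. Of the 501, 460 (91.8%, Wilson 95% interval 89.1 to 93.9) lay wholly inside the gene under their summit, against 95.9% of the narrower intervals. The other 41 reached past the gene by a median of 94 bp (1 to 1361 bp). Inside the gene, the nearer edge of a wide interval lay a median of 263.5 bp from the gene's end (quartiles 166.5 and 448 bp), against 400 bp for the narrower intervals. The strongest summit lay a median of 808 bp from the nearer gene end in the wide intervals and 629 bp in the narrower ones. It came within 200 bp of an end in 8 wide intervals (1.60%) and in 305 narrower ones (4.77%). In 65.3% of the wide and 56.4% of the narrower intervals it lay in the central 50% of the gene. No gene other than that under the summit was touched by 453 of the wide intervals, while 21 touched another protein-coding gene, 28 a non-coding RNA gene and 4 a pseudogene.

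Coverage by the wide intervals climbed steadily from the gene end inwards. Over the 392 wide intervals in genes of at least 2 kb, the outermost 100 bp at either end were covered at 5.44% of their bases, the stretch from 200 to 300 bp at 21.6%, from 500 to 600 bp at 43.2% and from 900 to 1000 bp at 61.4%. Over the 4474 narrower intervals in such genes the same stretches were covered at 2.21, 11.9, 19.8 and 17.3%. Coverage by the narrower intervals was thus highest from 500 to 600 bp, while that by the wide ones did not level off within 1000 bp. An interval of at least 1000 bp around a summit in the gene reaches more of the inner stretches by its width alone. This contrast is therefore tied to the choice. Both profiles pool the 2 ends of a gene, since the strand of the genes was not used.

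**Figure D4:**
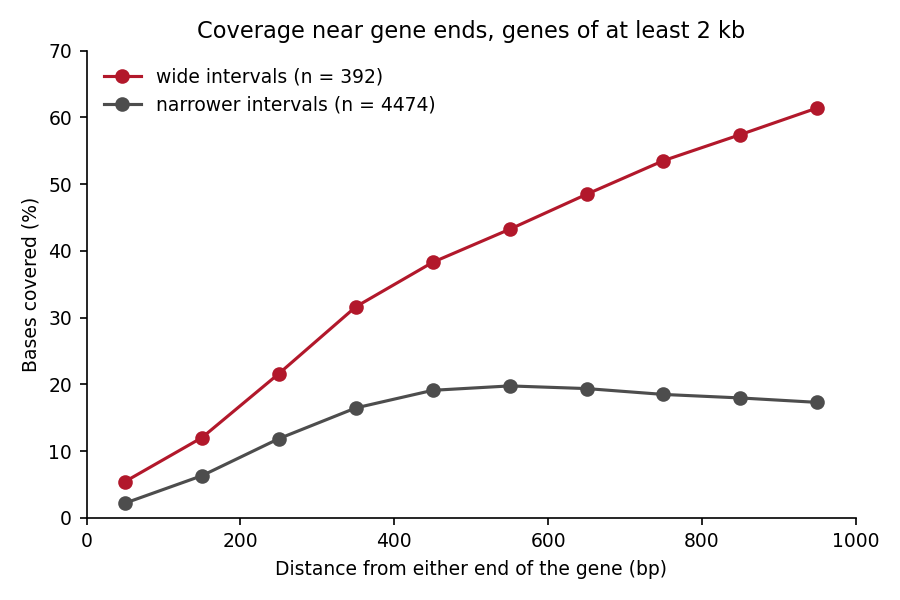
Mean share of bases covered (%) by the interval in steps of 100 bp from either end of the gene, for genes of at least 2 kb: red, 392 wide intervals; dark grey, 4474 narrower intervals. Red values climb to 61.4% at 900 to 1000 bp, and grey values stay under 20% throughout, a contrast tied to the split by width.

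Genes could hold more than 1 enriched stretch. In 96 of the 497 genes (19.3%, Wilson 95% interval 16.1 to 23.0) a narrower interval also had its summit, and the median share of the gene under any interval was then 51.5% over all 497 genes. Among all 22764 protein-coding genes of the arms, 5349 held the summit of a narrower interval. By length the share was 8.56% under 1000 bp, 19.3% from 1000 to 1500 bp, 22.9% from 1500 to 2000 bp and 26.6% from 2000 to 3000 bp. It reached 38.9% at 6000 bp and above. The median length of the 497 genes was 2639 bp, so a narrower interval was not more frequent in them than in genes of like length. GRV2, which encodes a large DnaJ-domain protein needed for vacuolar sorting and gravity sensing, held 2 wide intervals of 1109 and 1076 bp with folds of 1.73 and 1.83. Together with 2 further intervals, they covered 24.0% of its 12305 bp. MKP1, a phosphatase that turns off MAP kinases in stress signalling, also held 2, of 1229 and 1049 bp with folds of 1.80 and 1.86, and 57.8% of its 3939 bp was under intervals. AT3G05410 and AT2G44140 were the remaining genes with 2 wide intervals, covering 45.6% of each gene. At AT3G05410 the folds were 2.65 and 1.84 in replicate 2, and each interval had a replicate 1 peak, with folds of 2.42 and 1.88.

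The list of H2B-GFP replicate 1 had no part in choosing these places. A replicate 1 peak overlapped 152 of the 501 wide intervals (30.3%, Wilson 95% interval 26.5 to 34.5, counting error only), against 422 of 6397 narrower intervals (6.60%, 6.01 to 7.23) and 9.61% of all intervals in the list. A wide interval meets a peak more easily by its size alone, so the strongest summit, a single position, was also looked at. It is the strongest of a mean of 2.85 summits in the wide and 1.24 in the narrower intervals. The summit share therefore does not put the groups on a par. The strongest summit lay inside a replicate 1 peak in 77 wide intervals (15.4%, 12.5 to 18.8), against 265 narrower ones (4.14%, 3.68 to 4.66) and 6.12% of all. By bases, replicate 1 peaks covered 11.4% of the wide and 4.18% of the narrower intervals.

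The shares climbed with width on both sides of the threshold. Any overlap was found for 4.47% of intervals of 250 to 499 bp, 8.58% at 500 to 749 bp, 15.9% at 750 to 999 bp, 23.4% at 1000 to 1249 bp, 29.8% at 1250 to 1499 bp and 51.0% at 1500 bp and above. The summit shares over the same classes were 2.88, 5.51, 9.12, 12, 16.8 and 22.9%. The median −log10 q also climbed over these classes, with 2.28, 2.76, 3.27, 4.01, 4.55 and 5.44, so width and peak strength move together with the overlap.

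**Figure D5:**
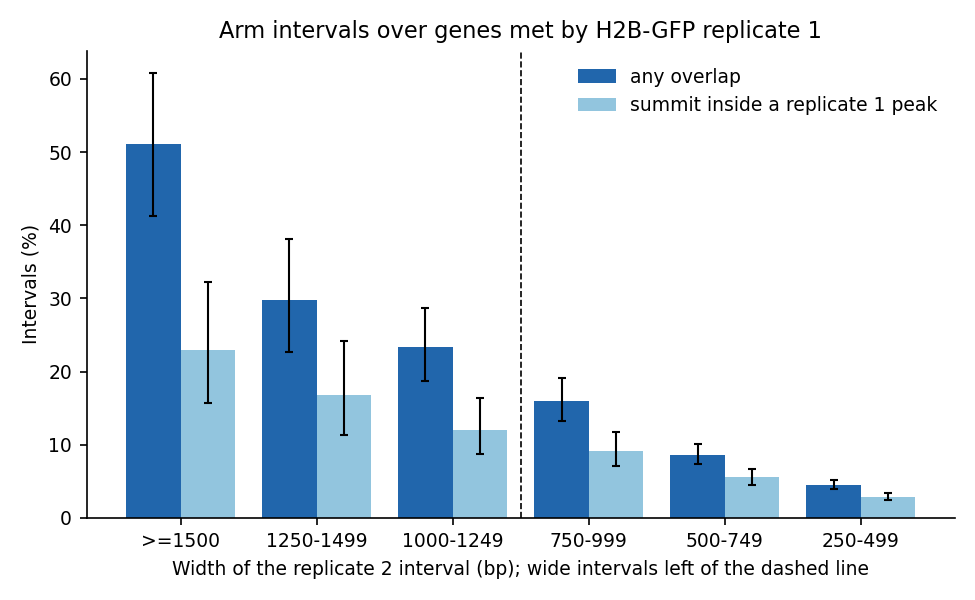
Share of arm intervals over genes (%) that a peak of H2B-GFP replicate 1 overlapped (dark blue) or whose strongest summit lay in one (light blue), by interval width in replicate 2 (bp), with Wilson 95% intervals as error bars. From left to right, overlap runs through 51.0, 29.8 and 23.4% in the wide classes, then 15.9, 8.58 and 4.47% in the narrower ones.

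Within bands of −log10 q the wide intervals had the larger summit share in 3 of 4 bands, but the bands did not match strength. In those 3 bands the median −log10 q was 2.54, 3.89 and 6.27 in the wide intervals. In the narrower ones it was 2.04, 3.59 and 5.83. In the top band the medians were 11.0 and 11.1. From 1.3 to 3 the summit lay in a replicate 1 peak for 6.67% of 90 wide and 2.80% of 4218 narrower intervals. From 3 to 5 it did so for 9.22% of 217 wide and 4.85% of 1753 narrower intervals, and from 5 to 10 for 24.4% of 176 wide and 13.1% of 411 narrower ones. At 10 and above the order was the other way, 44.4% of 18 wide against 53.3% of 15 narrower, with Wilson 95% intervals of 24.6 to 66.3 and 30.1 to 75.2 that overlap widely. In the lowest band the intervals also overlapped, 3.09 to 13.8% for the wide and 2.34 to 3.34% for the narrower. Which of width and strength goes with recovery in replicate 1 was not tested further.

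The 152 intervals met in replicate 1 were the wider and stronger of the 501. Their median width was 1306 bp, against 1193 bp for the 349 that were not met. Their median fold was 2.04 against 1.92, and their median −log10 q 5.41 against 4.01. Gene lengths were alike, with medians of 2573.5 and 2672 bp. In 137 cases there was a single replicate 1 peak and in 15 there were 2 or 3. The peaks covered a median of 418.5 bp, or 30.1%, of the wide interval, and only 23 of the 501 (4.59%) had at least 50% of their width covered. The median replicate 1 fold was 1.86, and it was higher than the replicate 2 fold in 37 of 152. Across these 152 sites, which all had a peak in both lists, the Spearman correlation of the folds was 0.01. Over all 501, the share overlapped in replicate 1 did climb with the −log10 q of replicate 2: 13.3% of 90 intervals from 1.3 to 3, 23.0% of 217 from 3 to 5, 44.3% of 176 from 5 to 10 and 66.7% of 18 at 10 and above.

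Among the intervals met, the highest replicate 1 fold was at TIP2, a gene of a tonoplast aquaporin: 2.73, against a replicate 2 fold of 2.33. The replicate 1 fold was 2.58 at AT2G24580 (1.84 in replicate 2), 2.45 at AT5G08670 (2.59), 2.42 at ARO2 (2.26), 2.4 at CRF2 (1.98) and 2.33 at HSL1 (1.90). ARO2 encodes an armadillo repeat protein, CRF2 an AP2/ERF-type cytokinin response factor and HSL1 a receptor kinase related to HAESA. At ARO2 the replicate 1 peak spanned 1259 of the 1991 bp of the wide interval (chr5:26453689-26455679), and at TIP2 342 of 1219 bp.

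The same choice applied to the replicate 1 list gave 22 wide intervals in the arms, 9 of them (40.9%) over protein-coding genes. In replicate 2 that share was 94.0% of the wide arm intervals, so the 2 lists differed in it. Of the 9, 7 overlapped one of the 501 in the same gene: PIN3, AT3G03680, AT4G18670, AT4G26540, ASY2, AT4G38710 and ARO2. The share of all replicate 1 intervals that overlapped one of the 501 was not computed. The other two, over ASIL2 and CHB3, overlapped only intervals of replicate 2 outside the 501. At PIN3, an auxin efflux carrier gene, the intervals of the 2 replicates nearly coincided, 1299 bp wide with a fold of 1.99 in replicate 1 and 1300 bp wide with a fold of 2.09 in replicate 2.

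GBPL3-GFP and the wide H2B-GFP intervals hardly met. A GBPL3-GFP replicate 1 peak overlapped 1 of the 501 (0.200%, Wilson 95% interval 0.0352 to 1.12), against 0.0697% of all intervals in the list, and a replicate 2 peak overlapped another 1 (0.200%), against 0.0813%. With 87 and 81 GBPL3 peaks in all, counts of 1 allow no comparison. The first was over the phospholipase gene PLA-I{beta]2 (chr4:9467621-9469057), with a GBPL3-GFP fold of 3.19, an H2B-GFP fold of 2.45 in replicate 2 and of 1.73 in replicate 1. The second was over AT4G01985 (chr4:866341-867901), with a GBPL3-GFP fold of 2.93, an H2B-GFP fold of 2.00 in replicate 2 and no replicate 1 peak. Neither site was called in both GBPL3-GFP replicates.

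Of the 20 gene lists looked up, the receptor kinases had the most genes with a wide interval: 7 of 75 arm genes (9.33%), against 2.18% of all arm genes. The median length of the listed receptor kinase genes was 3343 bp, against 2112 bp for all, and 34.7% of them held any interval of the list, against 25.3% of all arm genes. BAM1 and CLV1, receptors of CLE peptides in the shoot meristem, had folds of 2.11 and 2.02. HAE (HAESA), the receptor of floral organ abscission, had 2.07, and HSL1 had 1.90. FER (FERONIA) and THE1 (THESEUS1), which monitor the cell wall, had 1.99 and 1.65, and BRL3, a brassinosteroid receptor, had 1.81. A replicate 1 peak lay under the wide interval only at HSL1 among these 7. All 20 lists match gene symbols and so take in only part of each class.

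The list of lipoxygenase and phenylpropanoid symbols had 3 of 21 genes (14.3%, against 2.18% of all arm genes). Any interval was held by 47.6% of the 21, against 25.3% of all arm genes, and their median length was 3389 bp, against 2112 bp. The 3 with a wide interval were 4-coumarate:CoA ligases, which activate precursors of lignin and flavonoids: 4CL1 (fold 2.11), 4CL5 (1.87) and 4CL2 (1.83). Outside that list, FAH1 and F3H, hydroxylases of phenylpropanoid and flavonoid synthesis, also held wide intervals (2.06 and 1.95). The list of translation and RNA factors had 3 of 26 (11.5%), the translation initiation factors EIF4B2 (1.91) and EIF4B1 (1.81) and the splicing factor gene PRP39 (2.03). Of those 26 genes, 42.3% held any interval, and their median length was 2908 bp. The RNA helicase genes STRS1 (2.15) and PRH75 (1.89), which that list did not match, held wide intervals too. None of the 6 listed intervals was met in replicate 1. The list of cellulose and callose synthase symbols had 2 of 38 (5.26%), both cellulose synthase-like genes: CSLD3 (2.05), needed for root hair growth, and CSLC6 (1.83). Both had a replicate 1 peak, with folds of 1.75 and 1.62. Chromatin remodelers and histone modifiers also had 2 of 74 (2.70%, close to the 2.18% of all arm genes), the histone deacetylase HDA6 (1.86) and the SWI/SNF-type ATPase BRM (1.71), neither with a replicate 1 peak.

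Single genes came from 4 further lists. PSBO2, of the oxygen-evolving complex, was the only one of 38 photosystem and light-harvesting genes, with 4 summits at a fold of 2.24 over 75% of the gene. RPL3P was 1 of 31 ribosomal protein genes (1.69), ABCG1 1 of 110 ABC transporters (1.60) and AGO3 1 of 25 small RNA genes (2.34). AGO3 alone of these 4 had a replicate 1 peak, with a fold of 1.75. Shares of 2.63, 3.23, 0.909 and 4.00% set beside 2.18% rest on 1 gene each.

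No wide interval was found at the listed Calvin cycle (17 arm genes), histone (18), tubulin and actin (24), kinesin and myosin (28), heat shock (29), proton pump (14), NLR immune receptor (22), pentatricopeptide repeat (42), photoreceptor (12), MADS-box (78) or nuclear envelope (14) genes. These zeros hold for the listed symbols alone: the heat shock protein gene cpHsc70-1 (fold 1.79), the co-chaperone gene Hop2 (1.77) and the transketolase gene AT3G60750 (1.87), which the lists did not match, held wide intervals. Each of these lists did hold H2B-GFP intervals when width was left aside: 13 of 24 tubulin and actin genes, 9 of 12 photoreceptor genes and 7 of 14 nuclear envelope genes held one. MADS-box genes had 4 of 78 and pentatricopeptide repeat genes 4 of 42, shares of 5.13 and 9.52% against 25.3% of all arm genes. At a background of 2.18%, a count of 0 in lists this small says little.

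The 501 intervals were spread over all arms. Chromosomes 1 to 5 held 125, 72, 113, 88 and 103, or 5.34, 5.67, 6.87, 7.60 and 5.16 per Mb of arm. As shares of the protein-coding genes there, these were 2.01, 2.09, 2.41, 2.78 and 1.89%. The share met in replicate 1 lay between 23.6% on chromosome 2 and 36.8% on chromosome 1. The nearest other wide interval lay a median of 49.2 kb away, and 76 of the 501 had one within 10 kb. Distances between randomly placed intervals were not computed for comparison.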

How the data were processed

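ChIP-seq peak lists of the 4 pulldown samples were used. The submitters' processing notes name the aligner BWA (0.7.12), the peak caller MACS2 (2.1.0) and build TAIR10; their settings and the control are not given in the sources used. The authors deposited 1 list per sample, so peaks were called per sample. Each deposited line holds a start, an end, a score (the −log10 q times 10, without its decimals), a fold enrichment (a linear ratio), a −log10 p and −log10 q, and the summit's offset, by which the authors place the summit. Counts of reads were not used here, and depth is unknown.

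Lines sharing start and end were joined into 1 interval with their highest fold and −log10 q, and the summit of the line with the highest −log10 q. The centromere midpoints were 15.1, 3.6, 13.7, 4.0 and 11.7 Mb on chromosomes 1 to 5. Genes came from a RefSeq table of the assembly TAIR10.1, used for names, lengths and placement; it gives no strand or exons, so these were not used, and no sequence is printed. Coordinates are those of the authors' intervals, counted from 1. By chromosome, 91.2 to 93.5% of summits lay in protein-coding genes, and 59.7 to 67.9% after a 10 kb shift. A summit in 2 genes (9 of 501) went to the gene covered most. Overlap means at least 1 bp. Shares carry Wilson 95% intervals. Analyses ran in Python with pandas 2.3.3, numpy 2.4.6, scipy 1.17.1 and matplotlib 3.10.9, and the joining and selection were tested on a hand-built case.

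The 501 intervals and the lists were chosen with earlier results of these data known, and the patterns of the 20 gene lists, which match symbols only, were trimmed after the matches were seen. Genes are named if among the 10 widest, the 10 of highest fold, the 5 with most summits, the 10 of highest replicate 1 fold, those met by GBPL3, up to 3 per list by −log10 q, genes with 2 intervals and the 5 with the largest covered share. CLV1, HSL1 (as a list gene), BRL3, THE1, NCED2, COL3, the genes outside the lists, the replicate 1 genes and the genes of the closing paragraphs are named beyond this, after their values were seen.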

Additional observations from a re-analysis of the deposited data

How the results depend on the processing

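Of 57 recalculations, 39 stayed within 1.5 times the count or within the interval or spread of the value, and 18 did not. At a width of at least 1500 bp there were 96 intervals, with a median gene length of 2877 bp, 62.1% of the gene covered, 88.5% inside 1 gene, 100% with more than 1 summit and 51.0% met in replicate 1. At 750 bp there were 1104, with 39.6% covered, 86.4% with more than 1 summit and 22.5% met in replicate 1. Counting intervals with at least 90% of their length in the gene gave 96.6%. Counting a replicate 1 meeting by the summit gave 15.4%, and by 50% of the length 4.59%. Without replicate 2, the replicate 1 list gave 9 intervals, a median gene length of 3530 bp, 36.8% covered, 100% inside 1 gene and 100% with more than 1 summit; an overlap with replicate 1 then has no meaning and was not computed. The cause of these differences was not tested. Changes of the centromere or end distance, of the summit, of the overlap with a gene or a −log10 q of at least 3 moved none of the 6 values this far. No paired analysis was possible because the intervals come from 1 list and no result comes from a test. Depth is unknown, so the absence of a replicate 1 peak may reflect its shorter list; this was not tested. Wilson intervals cover counting error only, and neighbouring intervals are not independent.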

Other observations

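Several gene families appeared repeatedly by name among the 497 genes. They were picked after the values were seen, so their counts describe the 501 intervals and support nothing. Over all protein-coding genes of the arms the share with a wide interval was 2.18%, and 25.3% held an interval of any width. Of the 23 arm genes with GRAS regulator symbols, 6 held a wide interval (26.1%) and 17 an interval of any width. GAI and RGL2, DELLA repressors of gibberellin responses, had folds of 2.39 and 2.5 in replicate 2 and of 1.82 and 1.76 in replicate 1. HAM1, a HAIRY MERISTEM regulator of shoot stem cells, had 2.27 and, in replicate 1, 1.78, while HAM4 had 2.05 and no replicate 1 peak. SCL5 and SCL8 had 2.1 and 1.98, and in replicate 1 1.98 and 1.77. The interval of RGL2 was 1965 bp wide and covered 84.8% of the gene. Thus 5 of the 6 were also met in replicate 1.

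Ammonium transporter genes had 3 of 6 (50%): AMT1;1 (2.26), AMT1;4 (2.01) and AMT1;2 (1.92), of which the first 2 were met in replicate 1. Glycosyltransferases of the UGT family had 7 of 54 (13%), U-box ubiquitin ligases of the PUB family 5 of 20 (25%) and fasciclin-like arabinogalactan proteins 4 of 18 (22.2%). FLA10 had the highest fold of these, 2.59, over 84.9% of the gene and with no replicate 1 peak. The TCP factors TCP3, TCP4 and TCP8 were 3 of 15 (20%) and the GATA factors GATA2, GATA4 and GATA9 3 of 18 (16.7%). Exocyst genes named EXO70 or EXO84 had 3 of 23 (13%), EXO70B1, EXO70D3 and EXO70F1. An interval of any width was held by 27 of 54 UGT, 14 of 20 PUB and 8 of 18 FLA genes. The same was true of 4 of 6 ammonium transporter, 9 of 15 TCP, 9 of 18 GATA and 13 of 23 exocyst genes.

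Some wide intervals lay in next-door genes. There were 20 such pairs among the 497 genes. How many pairs arise by chance when 2.18% of the arm genes hold a wide interval was not computed, so the 20 are no measure of clustering. The glycosyltransferase genes UGT71C4 and UGT71C3 lay side by side with folds of 2.27 and 2.23, and with replicate 1 folds of 2.22 and 1.63. The ligase genes 4CL5 and 4CL2 were another pair of 1 family, without replicate 1 peaks. Some pairs joined genes of different families, such as TCP3 with the malate dehydrogenase gene mMDH1 and AMT1;2 with ILA. Other pairs held genes known by locus number alone, such as AT5G08670 with AT5G08680 and AT1G03220 with AT1G03230. For these the names do not show whether both genes are of 1 family. How reads that match both copies of a tandem family were placed is not given in the sources used here.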
